A study of Rattus norvegicus with 25 samples.

Results

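Genes of hepatic bile acid handling, 7 in all, are described here: the bile acid receptor gene Nr1h4, its target Nr0b2, and the genes of 5 hepatocyte membrane transporters, Slc10a1, Abcb11, Abcb4, Abcc2 and Abcc3. The members were chosen as the probe sets that carry 1 of these 7 symbols and no other. Each gene had exactly 1 such probe set, so that 7 of the 31042 probe sets, and 7 of the 14217 genes they name, are members. RNA came from 7 stable lines of McArdle-RH7777, a rat hepatoma cell line, and was measured on 25 Affymetrix rat arrays. The Sar1A group held 1 line, in which human Sar1A was overexpressed, with 4 arrays. The Sar1B group held 2 lines overexpressing human Sar1B, and the Sar1B:H79G group held 2 lines overexpressing its constitutively active form, which cannot complete GTP hydrolysis, each with 4 arrays per line. The control group held 2 lines with 2 and 3 arrays, which the study describes as carrying the empty vector. All cultures grew in Blasticidin and Zeocin and received 1 µg/ml tetracycline for 24 h, which switches on the FLAG-tagged constructs. Each construct line is a selected clone, so that a difference between clones and an effect of the construct cannot be told apart where a group has a single line. The arrays of a line are technical replicates by the study's methods, and the line was therefore the unit of replication.

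Bile acids are made from cholesterol in hepatocytes, are secreted across the canalicular membrane into bile and return from the gut to be taken up across the sinusoidal membrane. Nr1h4 encodes FXR, the nuclear receptor that binds bile acids and pairs with RXR on DNA, and Nr0b2 encodes SHP, a nuclear receptor without a DNA-binding domain that FXR induces and that represses other nuclear receptors. Slc10a1 encodes NTCP, the sodium-dependent carrier that takes conjugated bile acids into the cell. Abcb11 encodes BSEP, the bile salt export pump of the canaliculus, Abcb4 encodes the flippase that supplies phosphatidylcholine to bile, and Abcc2 encodes MRP2, which exports bilirubin glucuronides and other conjugates there. Abcc3 encodes MRP3, which sends conjugates across the basolateral membrane back to blood. Sar1 is the GTPase that starts the COPII coat on the endoplasmic reticulum, from which newly made membrane transporters leave. The arrays report RNA and give no measure of transporter protein or of its place in the cell.

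Promoters of 4 of the 7 members were in the RefSeq table of the rat assembly GRCr8. Those of Slc10a1, Nr0b2 and Abcc2 are printed because the control group had the highest Slc10a1 and Nr0b2 means and the lowest Abcc2 mean. None of their differences from control was called at an adjusted p under 0.05 (limma), and the Slc10a1 signal was dim. Each run holds the 250 bases before the transcription start, 5′ to 3′ on the gene's own strand. Capitals mark matches to the motifs searched on both strands. Slc10a1 lies at chr6:106357945-106358194 on the minus strand, Nr0b2 at chr5:151062910-151063159 on the plus strand and Abcc2 at chr1:252613625-252613874 on the plus strand.
Slc10a1: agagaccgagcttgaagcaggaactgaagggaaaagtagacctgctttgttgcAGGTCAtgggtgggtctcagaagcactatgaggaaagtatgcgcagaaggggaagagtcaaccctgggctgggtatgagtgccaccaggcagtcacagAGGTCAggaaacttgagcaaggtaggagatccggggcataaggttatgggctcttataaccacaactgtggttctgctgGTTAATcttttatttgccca
Nr0b2: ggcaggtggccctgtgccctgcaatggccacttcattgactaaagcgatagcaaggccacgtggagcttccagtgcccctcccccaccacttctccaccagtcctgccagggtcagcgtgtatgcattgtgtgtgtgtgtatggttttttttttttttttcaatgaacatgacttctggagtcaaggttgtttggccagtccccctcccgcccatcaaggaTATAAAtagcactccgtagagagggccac
Abcc2: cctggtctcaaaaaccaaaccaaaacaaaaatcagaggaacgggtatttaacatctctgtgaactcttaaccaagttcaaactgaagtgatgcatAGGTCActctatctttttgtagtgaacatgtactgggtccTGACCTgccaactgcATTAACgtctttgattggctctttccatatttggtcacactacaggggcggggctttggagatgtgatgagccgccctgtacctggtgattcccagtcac
The nuclear receptor hexamer AGGTCA stood in the Slc10a1 promoter at -197 and -99 and in the Abcc2 promoter at -155, and on the opposite strand of Abcc2 at -115, where the run shows TGACCT. It was present in 14.1% of 33469 rat promoters of the same length. The HNF1 core GTTAAT stood at -20 in Slc10a1 and on the opposite strand at -100 in Abcc2, and was present in 6.45% of promoters. A TATA box, TATAAA, stood at -29 in Nr0b2 and in 12.9% of promoters. In the Abcb4 promoter, the HNF4 motif CAAAGTCCA at -30 was the sole match, to letters found in 0.338% of promoters. The FXR inverted repeat core GTCANTGAC (0.388% of promoters), the LRH-1 motif CAAGGTCA (1.33%), which contains the hexamer, and the C/EBP-ATF motif TGATGCAA (0.693%) were not found in the 4 windows. Only these exact letters within 250 bases were searched, so that sites with other letters or further upstream would be missed. Abcb11, Abcc3 and Nr1h4 had no promoter to search.

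Array medians ran from 8.10 to 8.16 on the log2 scale. Arrays of the same line correlated at a median r of 0.995, arrays from the pair of lines of a group at 0.991 and arrays of different groups at 0.977. All 9 hepatocyte markers measured lay above the median probe set and 8 of them above the 90th percentile, among them Afp and Ttr. Of the 6 cholangiocyte markers, 2 lay above the median, Epcam and Spp1, while the defining keratins Krt19 and Krt7 lay under it, as did all 4 Kupffer cell and all 4 endothelial cell markers. Of the 4 stellate cell markers, 2 lay above the median, Acta2, with 82.6% of probe sets below it, and Col1a1, with 50.7%. All control arrays belong to one array series and all other arrays to a second, which means that series and lack of a construct cannot be told apart. For the polyadenylated spike-in RNAs, the 5′ minus the 3′ log2 signal was -1.93 and -1.86 in the control lines and between -1.16 and -1.08 in the others. The 3 construct groups all lie within the second series. In these bulk cultures fewer expressing cells and less RNA per cell cannot be told apart.

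Nr1h4 was the sole member to pass the test, and it was lower in Sar1B:H79G cells than in controls. Its log2 signal averaged 8.52 ± 0.12 (SD of 2 arrays) and 8.61 ± 0.14 (SD of 3 arrays) in the control lines. The Sar1B lines averaged 8.26 ± 0.098 and 8.16 ± 0.066, the Sar1B:H79G lines 7.90 ± 0.12 and 8.09 ± 0.14, and the Sar1A line 7.91 ± 0.12 (SD of 4 arrays in each). The 5 control arrays, from 8.43 to 8.77, lay above all 20 arrays of the construct lines, whose highest was 8.39. The 20 arrays are technical replicates of 5 clones and belong to the other array series. The share of all probe sets that separate in this way was not determined, here or for the members below. In Sar1B:H79G cells the Nr1h4 signal fell by 0.57 on the log2 scale against control, with an S.E. of 0.088, which is 1.49-fold (adjusted p = 0.0091, limma with Benjamini-Hochberg adjustment over all probe sets). Nr1h4 was 1 of 7 members called in this comparison, in which 22.3% of all probe sets were called. The Sar1B lines differed from control by -0.35 (adjusted p = 0.064, limma) and the Sar1A line by -0.66 (adjusted p = 0.053), and neither passed. Without control line 2 the Sar1B:H79G difference was -0.52 and was no longer called (adjusted p = 0.074). Within the second array series the Sar1B:H79G lines differed from the Sar1B lines by -0.22, with a 95% interval from -0.44 to -0.01 and an adjusted p of 0.22 (limma), and from the Sar1A line by 0.09 (adjusted p = 0.88). The part of the array series, whose spike-in gaps are given above, in the difference from control was not tested. Across groups the order of the levels was Sar1A, Sar1B:H79G, Sar1B and control, from low to high, and of the 3 neighbouring pairs only Sar1A and Sar1B:H79G had an interval that included 0.

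**Figure D1:**
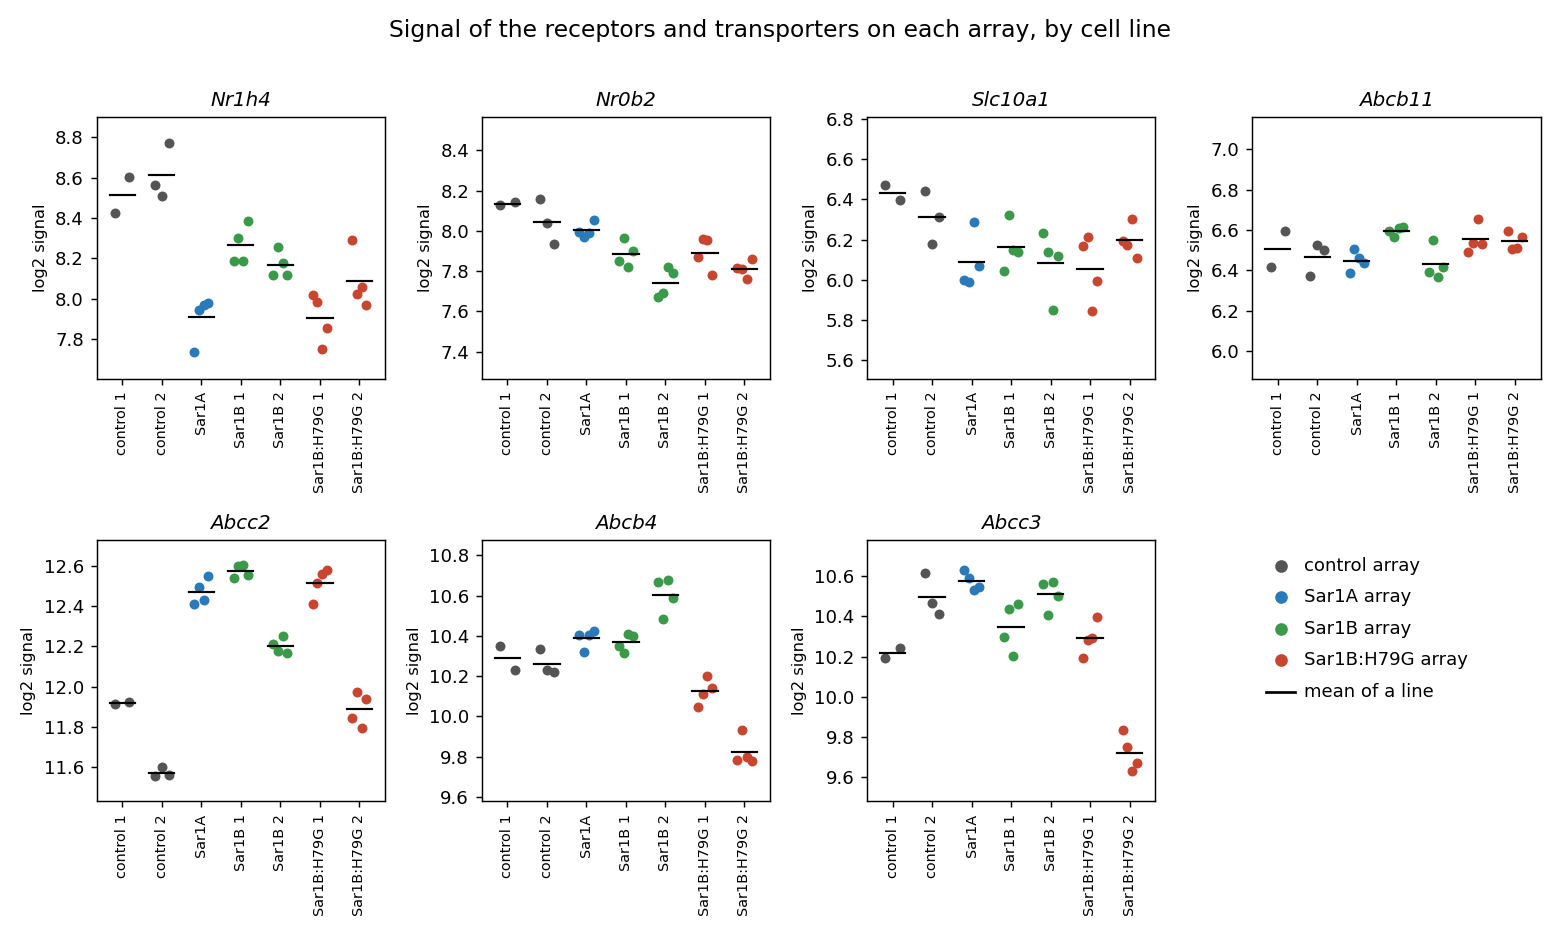
Log2 signal (vertical axis, each panel spanning 1.3 units) of the 7 genes on each of the 25 arrays, grouped by cell line on the horizontal axis; points are arrays, coloured by group, and lines are the mean of a cell line. The 5 Nr1h4 control arrays lie above all 20 others, which belong to another array series, and the Abcc2 signal separates the lines of each group.

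Nr0b2, the FXR target that encodes SHP, had its lowest group mean in Sar1B, at 7.81, next to 7.85 in Sar1B:H79G, and its highest in control, at 8.09. The control lines averaged 8.14 ± 0.010 and 8.05 ± 0.11, the Sar1A line 8.0 ± 0.037, the Sar1B:H79G lines 7.89 ± 0.084 and 7.81 ± 0.040, and the Sar1B lines 7.88 ± 0.062 and 7.74 ± 0.073. None of the 20 construct arrays lay above the control range and 13 lay under it, the remaining arrays overlapping with control line 2. The difference from control was -0.28 in Sar1B cells (S.E. 0.079, adjusted p = 0.082, limma) and -0.24 in Sar1B:H79G cells (adjusted p = 0.076), and neither passed. Sar1A differed by -0.09, with an interval from -0.32 to 0.15. Between Sar1B:H79G and Sar1B the difference was 0.04, with an interval from -0.15 to 0.23, so that a difference within that interval is not excluded. No neighbouring pair of groups in the order of the levels had an interval that excluded 0. The unadjusted intervals of the differences from control did exclude 0 in Sar1B, from -0.47 to -0.09, and in Sar1B:H79G, from -0.43 to -0.05.

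Slc10a1, the gene of the sinusoidal bile acid carrier, gave a dim signal, with 4.38% of all probe sets below it. Because no detection calls came with the values, the presence of its transcript in these cells cannot be told. The control lines averaged 6.43 ± 0.055 and 6.31 ± 0.13, the Sar1B lines 6.16 ± 0.12 and 6.08 ± 0.16, the Sar1B:H79G lines 6.05 ± 0.17 and 6.20 ± 0.081, and the Sar1A line 6.09 ± 0.14. Of the 20 construct arrays, 14 lay under the control range and 0 above it. The differences from control were -0.25 in Sar1B:H79G (adjusted p = 0.078, limma), -0.25 in Sar1B (adjusted p = 0.11) and -0.28 in Sar1A (adjusted p = 0.18). The 3 construct groups lay within 0.04 of each other. Among neighbouring pairs in the order Sar1A, Sar1B, Sar1B:H79G and control, only Sar1B:H79G and control had an interval that excluded 0, from 0.05 to 0.45. The Sar1B and Sar1A differences from control also had intervals that excluded 0, from -0.45 to -0.05 and from -0.53 to -0.04. These intervals are not adjusted for the number of probe sets.

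Abcb11, the gene of the bile salt export pump, was also dim, with 7.30% of probe sets below it, and its line means spanned 0.17, from 6.43 in Sar1B line 2 to 6.60 in Sar1B line 1. The control lines averaged 6.50 and 6.47, the Sar1A line 6.45 and the Sar1B:H79G lines 6.55 and 6.54. The arrays of each pair of groups overlapped. Its difference from control was 0.06 in Sar1B:H79G, with an interval from -0.12 to 0.25, 0.03 in Sar1B and -0.04 in Sar1A. At so low a signal a change in the transcript could not be told from one in the background of the array.

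Abcb4, the gene of the canalicular phospholipid flippase, was lowest in both Sar1B:H79G lines. These averaged 10.13 ± 0.066 and 9.82 ± 0.073, against 10.29 ± 0.083 and 10.26 ± 0.062 in the control lines, 10.39 ± 0.046 in the Sar1A line, and 10.37 ± 0.043 and 10.60 ± 0.091 in the Sar1B lines. The highest of the 8 Sar1B:H79G arrays was at 10.20, under the lowest control array at 10.22 and the lowest Sar1A and Sar1B arrays, both at 10.32. The Sar1B:H79G group differed from Sar1B by -0.51 (S.E. 0.12, interval from -0.81 to -0.21, adjusted p = 0.060, limma), which is 1.43-fold and did not pass. The 5′ minus 3′ signal of β-actin averaged -0.67 in Sar1B:H79G and -0.50 in Sar1B, and its part in this difference was not tested. It differed from Sar1A by -0.41 (adjusted p = 0.27) and from control by -0.30 (adjusted p = 0.13). Without Sar1B:H79G line 1 the difference from Sar1B was -0.66 and was called (adjusted p = 0.033), whereas it was -0.36 (adjusted p = 0.17) without Sar1B:H79G line 2 and -0.39 (adjusted p = 0.25) without Sar1B line 2. The difference from control was -0.45 (adjusted p = 0.062) without Sar1B:H79G line 1 and -0.15 (adjusted p = 0.42) without line 2. Sar1B and Sar1A lay above control by 0.21 and 0.11, with intervals that included 0.

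Abcc2, the gene of the canalicular conjugate pump MRP2, had 97.7% of probe sets below it and, with 1.00, the widest range of line means of the 7 genes. It averaged 11.92 ± 0.0043 and 11.57 ± 0.024 in the control lines, 12.57 ± 0.032 and 12.20 ± 0.038 in the Sar1B lines, 12.52 ± 0.077 and 11.89 ± 0.081 in the Sar1B:H79G lines, and 12.47 ± 0.064 in the Sar1A line. Of the 20 construct arrays 18 lay above the control range, and the other 2 belonged to Sar1B:H79G line 2. The difference from control was 0.73 in Sar1A (S.E. 0.29, adjusted p = 0.21, limma), 0.64 in Sar1B (S.E. 0.24, adjusted p = 0.14) and 0.46 in Sar1B:H79G (S.E. 0.24, adjusted p = 0.21), and none passed. The last of these was 0.14 (adjusted p = 0.69) without Sar1B:H79G line 1, 0.77 (adjusted p = 0.059) without line 2 and 0.28 (adjusted p = 0.60) without control line 2. The signals of Sar1B and Sar1A did not overlap with those of control, whereas Sar1B:H79G line 2 lay between the control lines. Sar1B:H79G differed from Sar1B by -0.19, with an interval from -0.76 to 0.39 that is wider than the difference in either direction.

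Abcc3, the gene of the basolateral pump MRP3, was set apart in a single line. Sar1B:H79G line 2 averaged 9.72 ± 0.092, and its 4 arrays, from 9.63 to 9.84, were the lowest of the series. The other Sar1B:H79G line averaged 10.29 ± 0.082, within the span of the control lines at 10.22 ± 0.034 and 10.50 ± 0.11. The Sar1B lines averaged 10.35 ± 0.12 and 10.51 ± 0.075, and the Sar1A line was highest at 10.57 ± 0.046. Sar1B:H79G differed from Sar1B by -0.42 (interval from -0.90 to 0.05, adjusted p = 0.30, limma), from Sar1A by -0.57 (adjusted p = 0.35) and from control by -0.35 (adjusted p = 0.23). Without Sar1B:H79G line 1 the difference from Sar1B was -0.71 and was called (adjusted p = 0.046), and with line 1 alone it was -0.14. The difference from control was -0.64 and was called (adjusted p = 0.041) without Sar1B:H79G line 1, -0.07 (adjusted p = 0.77) without line 2 and -0.21 (adjusted p = 0.63) without control line 2. No neighbouring groups in the order Sar1B:H79G, control, Sar1B and Sar1A differed beyond the interval of their difference.

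**Figure D2:**
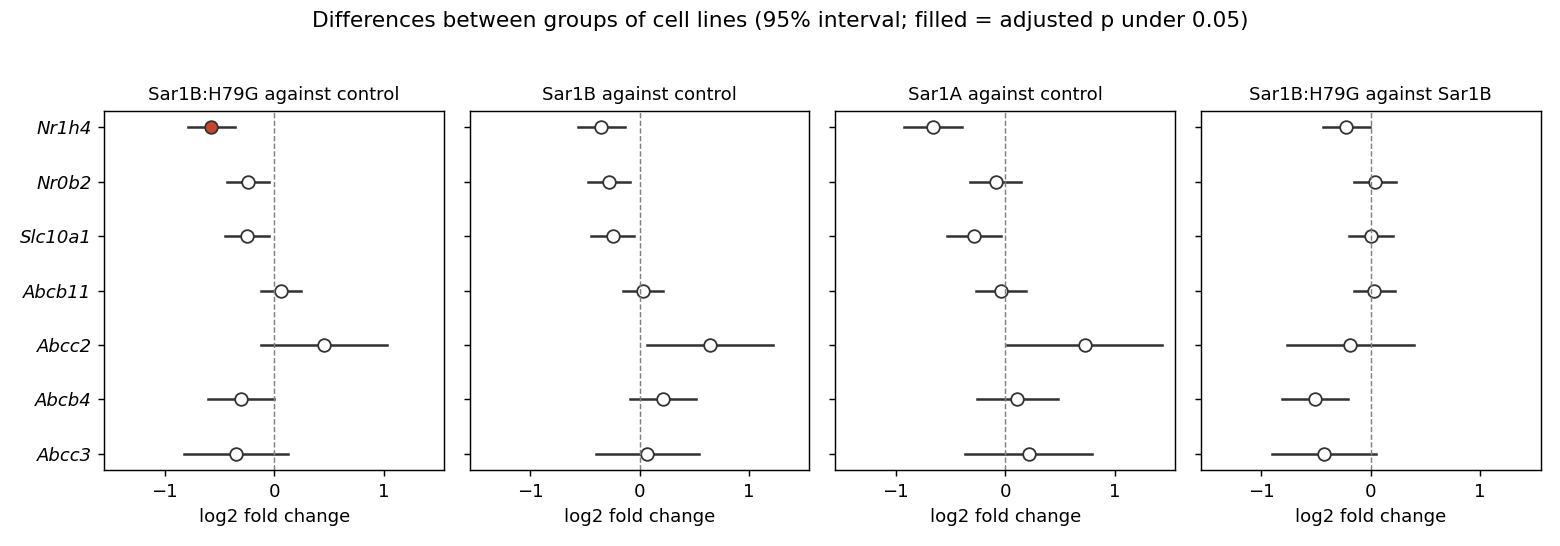
Log2 fold change (horizontal axis) of the 7 genes in 4 of the comparisons, with bars for the 95% interval from the limma fit of 7 line means; a filled point has an adjusted p under 0.05. The Nr1h4 difference of -0.57 between Sar1B:H79G and control is the only filled point.

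In the other 5 comparisons 0 of 7 members passed. The share of all probe sets called was 8.29% for Sar1B and 1.18% for Sar1A against control, 8.63% in Sar1B:H79G against Sar1B, 2.96% in Sar1B:H79G against Sar1A and 0.00322% in Sar1A against Sar1B. At an unadjusted p under 0.05, 3 members differed in Sar1B:H79G against control, where 38.9% of all probe sets did, 4 for Sar1B (29.4%) and 3 for Sar1A (22.8%) against control. The counts were 2 in Sar1B:H79G against Sar1B (21.4%), Abcb4 and Nr1h4, then 1 in Sar1B:H79G against Sar1A (15%) and 1 in Sar1A against Sar1B (6.56%). The median difference of the 7 members was -0.25 in Sar1B:H79G against control, beside 0.03 over all probe sets, and 0.03 in Sar1B and -0.04 in Sar1A against control, beside 0.03 and 0.02. These 3 comparisons share the control lines. Each of these member medians is the value of 1 dim gene, Slc10a1 in Sar1B:H79G and Abcb11 in Sar1B and Sar1A. They are therefore no measure of a shift of the members as a group. Of the 21 neighbouring pairs of groups in the order of the members' levels, 3 had an interval that excluded 0. The intervals are unadjusted, and the pairs were set by the order of the same means. The Nr1h4 pairs had adjusted p of 0.22 and 0.064 and the pair of the dim Slc10a1 0.078 (limma), so that none passed. The share of all probe sets with such pairs was not determined.

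Abcc2, Abcc3 and Abcb4 differed more between lines of a group than the arrays of a line did. The SD between lines of a group was 0.33 for Abcc2, 5.82 times the SD between arrays of a line and larger than in 98.5% of all probe sets. It was 0.27 for Abcc3, 3.07 times the array SD and larger than in 96.8% of probe sets, and 0.16 for Abcb4, 2.35 times the array SD and larger than in 84.0%. The ratio lay between 0.62 and 1.12 for Slc10a1, Nr1h4, Abcb11 and Nr0b2, and the median SD of all probe sets was 0.081 between lines and 0.10 between arrays. In the Sar1B:H79G group, line 1 exceeded line 2 by 0.63 for Abcc2, by 0.57 for Abcc3 and by 0.30 for Abcb4, and the arrays of the pair of lines did not overlap. The Abcc2 lines were separate in all 3 groups with 2 lines, by 0.35 in control and 0.37 in Sar1B, line 1 being the higher. The Abcb4 and Abcc3 lines were separate in 2 of the 3 groups, and those of Nr1h4 and Slc10a1 in 0. Line numbers only name clones.

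**Figure D3:**
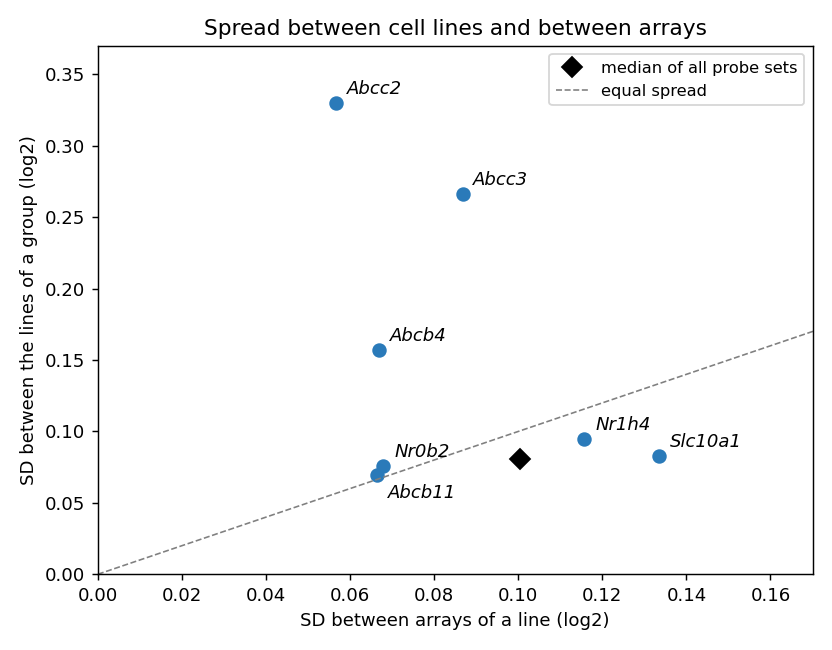
SD between arrays of a line (horizontal axis) and SD between the lines of a group (vertical axis), both in log2 units, for the 7 genes (circles) and the median probe set (diamond); the dashed line marks equal spread. Abcc2 at 0.33, Abcc3 at 0.27 and Abcb4 at 0.16 lie above the line, whereas the receptor gene Nr1h4 lies under it.

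Over the 7 line means, which share groups and array series, Pearson's r between members was 0.86 for Abcb4 and Abcc3 and 0.86 for Slc10a1 and Nr1h4, and 0.72 for Slc10a1 and Nr0b2. It was -0.72 for Abcc2 with each of Nr1h4 and Slc10a1, and 0.52 for Nr1h4 with Nr0b2. These are descriptions over few points, of which the control lines hold the highest Nr1h4, Slc10a1 and Nr0b2 means. The genes whose line means were most like those of Nr1h4, among 9432 candidates above the median signal, were Nubp2 (r = 0.992), which encodes an iron-sulfur cluster assembly protein, Pip5k1c (r = 0.989), which encodes a kinase that makes phosphatidylinositol bisphosphate, and Unc45b (r = 0.987), which encodes a myosin chaperone. The Nubp2 mean ran from 10.88 in the Sar1A line to 11.50 in control line 2, and 13 candidates had an r over 0.95.

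Genes of the same pathway were described by 6 lists, of which 80 of 96 symbols were measured by a probe set of 1 symbol. Some of the 96 are older and newer names of the same gene, such as Slc9a3r1 and Nherf1. The lists therefore hold fewer genes than symbols. In Sar1B:H79G against control 13 were higher and 15 lower, which is to be read beside 24% of all genes called, and against Sar1B 5 were higher and 14 lower, beside 12.1%. In Sar1A against control 0 of 80 passed in limma, beside 0.865% of all genes, and 22 had an unadjusted p under 0.05, beside 22.8% of all probe sets. The median difference over the 80 genes was -0.03 against control and -0.02 against Sar1B, beside 0.02 and 0.01 over all genes.

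Of 18 genes of bile acid synthesis and conjugation, 1 was higher and 4 lower in Sar1B:H79G against control, and 1 was higher and 5 lower against Sar1B. Slc27a2, which encodes a very long-chain acyl-CoA synthetase, fell by 1.57 against control (adjusted p = 0.0059, limma) and fell by 1.42 against Sar1B (adjusted p = 0.014). Akr1c14, a hydroxysteroid dehydrogenase gene whose probe set can also detect related transcripts, fell by 1.11 against control (adjusted p = 0.013) and fell by 1.39 against Sar1B (adjusted p = 0.011). Baat, which encodes the enzyme that joins bile acids to taurine and glycine, fell by 1.45 against Sar1B (adjusted p = 0.045) and differed by -0.91 from control without passing (adjusted p = 0.088). The list's median was -0.13 against control and -0.06 against Sar1B.

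Of 8 sinusoidal uptake carriers measured of 11 listed, 0 passed in limma in either comparison, with 1 and 0 at an unadjusted p under 0.05 and medians of -0.06 and 0.02. Of 13 other efflux pumps and flippases, 3 were higher and 2 lower against control, and 2 were higher and 2 lower against Sar1B, with medians of -0.03 and -0.04. Abcb1a, which encodes a P-glycoprotein that exports drugs, was higher by 2.50 than in control (S.E. 0.24, adjusted p = 0.0025, limma) and by 1.68 than in Sar1B (adjusted p = 0.013), with group means of 8.33 in control, 8.79 in Sar1A, 9.16 in Sar1B and 10.84 in Sar1B:H79G. Whether its probe set also detects the related Abcb1b was not tested. Tmem30a, which encodes the partner subunit of P4-type lipid flippases, was higher by 1.11 than in control (adjusted p = 0.00093) and by 0.50 than in Sar1B (adjusted p = 0.0095). Abcg2, an efflux pump gene, fell by 0.97 against Sar1B (adjusted p = 0.033) and differed by -0.58 from control without passing (adjusted p = 0.076).

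Among the receptors and regulators, 0 were higher and 4 of 13 lower in each of these comparisons, with list medians of -0.06 against control and -0.16 against Sar1B. Hnf4a, which encodes a receptor that maintains hepatocyte gene expression, fell by 0.78 against control (adjusted p = 0.0025, limma) and fell by 0.92 against Sar1B (adjusted p = 0.0030). Nr5a2, which encodes LRH-1, a receptor that SHP represses, fell by 0.88 against control (adjusted p = 0.0043) and fell by 0.86 against Sar1B (adjusted p = 0.0082). Ppargc1a, a coactivator gene, fell by 0.68 against control (adjusted p = 0.011) and fell by 0.51 against Sar1B (adjusted p = 0.046). Rxra, the partner of FXR, differed by 0.21 from control and by -0.19 from Sar1B and did not pass.

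Of 18 genes of canalicular anchoring and trafficking, 8 were higher and 3 lower against control, and 2 were higher and 2 lower against Sar1B. The list's median was 0.20 in Sar1B:H79G, 0.22 in Sar1B and 0.19 in Sar1A against control, beside 0.02, 0.03 and 0.02 over all genes, and these comparisons share the control lines and the array series. Myo5b, which encodes a myosin motor of apical recycling endosomes, was higher by 0.99 than in control (adjusted p = 0.0018, limma) and by 0.47 than in Sar1B (adjusted p = 0.026). Ezr, which encodes the membrane-cytoskeleton linker ezrin, was higher by 0.76 than in control (adjusted p = 0.016) and differed by 0.42 from Sar1B without passing (adjusted p = 0.15). Dpp4, which encodes an apical membrane peptidase, fell by 0.83 against control (adjusted p = 0.030) and differed by -0.72 from Sar1B without passing (adjusted p = 0.076).

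Of 10 further FXR target genes, 1 was higher and 2 lower against control, and 0 were higher and 1 lower against Sar1B, with medians of -0.10 and -0.22. Fga, the fibrinogen alpha chain gene, fell by 1.94 against control (adjusted p = 0.0033, limma) and fell by 2.13 against Sar1B (adjusted p = 0.0047). Fgg and Fgb, the genes of the other fibrinogen chains, did not pass in either comparison. They differed from control by 0.50 and 0.04 (adjusted p = 0.31 and 0.84, limma). Against Sar1B they differed by -0.70 and -0.13 (adjusted p = 0.31 and 0.72). Apoc2, which encodes a cofactor of lipoprotein lipase, fell by 1.19 against control (adjusted p = 0.043) and differed by -1.09 from Sar1B without passing (adjusted p = 0.097). Pltp, the phospholipid transfer protein gene, was higher by 0.32 than in control (adjusted p = 0.027) and differed by 0.10 from Sar1B (adjusted p = 0.58).

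**Figure D4:**
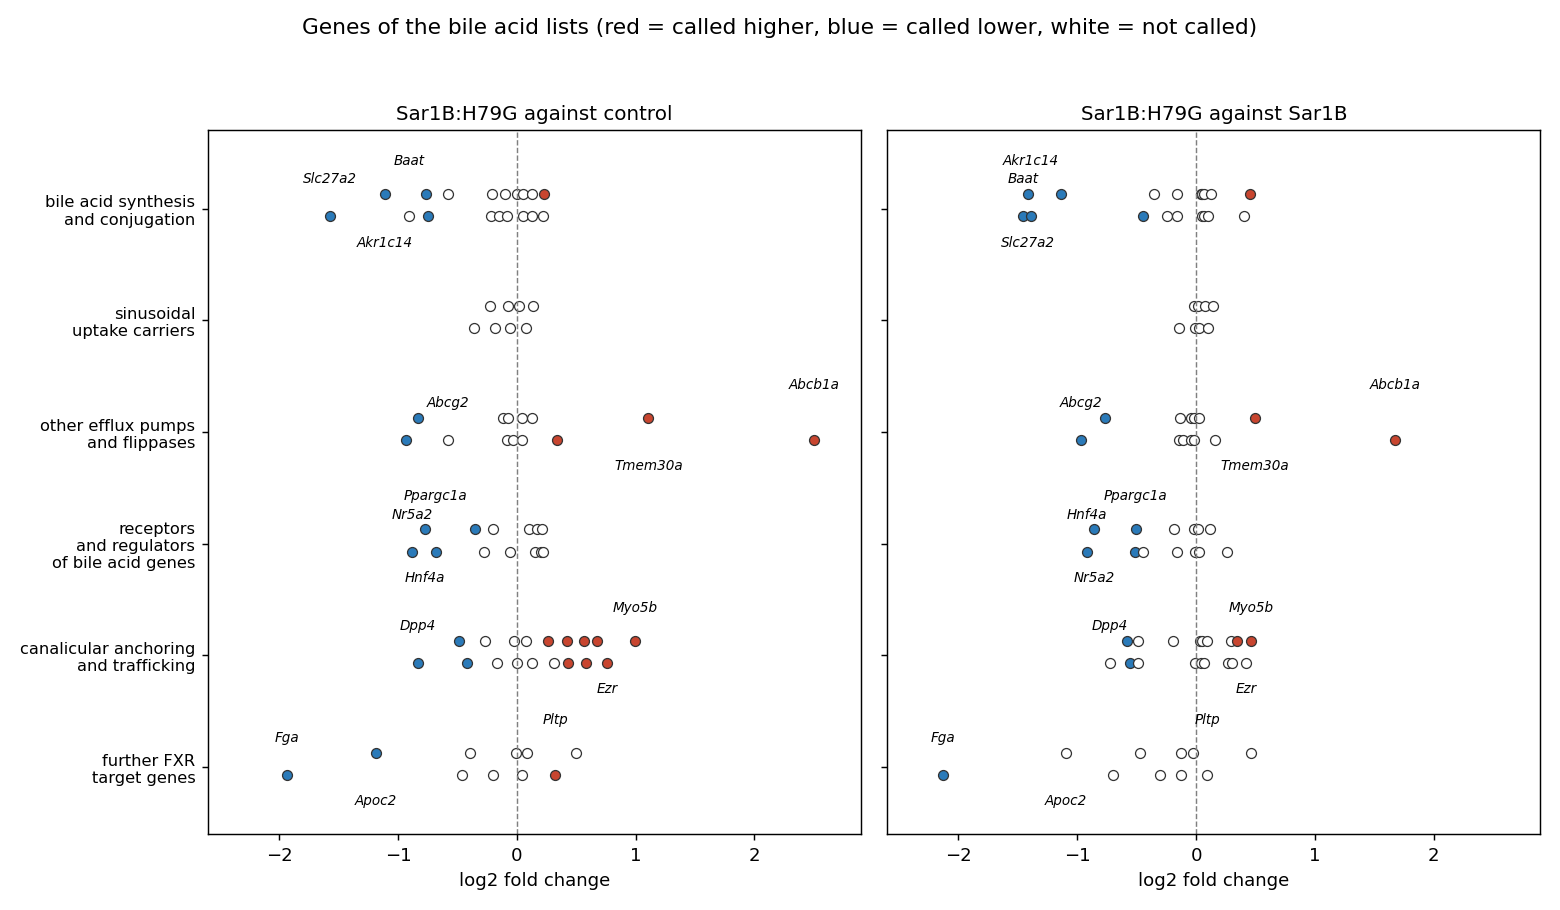
Log2 fold change (horizontal axis) of the 80 genes of 6 bile acid lists (rows) in Sar1B:H79G against control (left) and against Sar1B (right). Each point is a gene, red if called higher, blue if called lower and white if not called, set at alternating heights for legibility. The genes named for the largest changes are labelled near their points. Abcb1a at 2.50 and Fga at -1.94 have the largest differences from control.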

How the data were processed

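The 7 genes and the 6 lists were chosen with earlier results of these data known. Total RNA was copied into cDNA, from which cRNA labelled with biotin was made and hybridized to 25 Affymetrix arrays. The authors applied loess and MAS 5 normalization in CARMAweb (version not given in the sources used here) and deposited log2 values, 1 per probe set and array. Base 2 was taken from the span of the values, and no detection calls came with them. Array controls, 57 in all, were removed, which left 31042 probe sets, of which 20826 carried 1 symbol, 436 several and 9780 none. All 7 members' symbols were current in the rat gene table.

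Technical arrays were averaged, and limma 3.58.1 (R 4.3.3) was fitted to the 7 line means in 1 model of 4 groups, with 3 residual and 3.16 prior degrees of freedom. The p-values were Benjamini-Hochberg adjusted over all 31042 probe sets and called under 0.05. With 1 line, Sar1A took its variance from the other groups. A listed gene was taken by its probe set with the highest mean. Nothing in the labels says that lines were grown as separate cultures on separate days, so that p-values measure the spread between lines, and precision is limited by the 1 or 2 lines of a group. Named from the lists are at most the 3 called genes with the largest change in Sar1B:H79G against control or Sar1B. Rxra, Fgg and Fgb were added after their values were seen. Promoters came from RefSeq (GRCr8). Fits were repeated with single arrays as replicates, with the line as a random block (duplicateCorrelation, statmod 1.5.0), after quantile normalization or a shift to a common median, without dim probe sets, on the compared groups alone, with trended robust eBayes, with a replicate block for the line number, without each line, with a gene's probe sets averaged, and at a threshold of 0.01. The fit was tested on simulated data.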

Additional observations from a re-analysis of the deposited data

Results flagged for a closer look

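On 1 array of the Sar1A line, Nr1h4 stood at 7.73, below the other 3 arrays of that line, whose values lay between 7.95 and 7.98. The gap was large for a group of this size by Dixon's criterion. It was 1 flag among 28 tests, of the 7 genes in the arrays of each of 4 groups. Chance flags a share of about 0.05 of such tests where the arrays are 1 normal sample. That share need not hold where a group joins 2 lines, as every group but Sar1A does. The Sar1A line mean of 7.91 includes this array.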

How the results depend on the processing

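The fall of Nr1h4 in Sar1B:H79G against control kept its direction in 16 alternatives, between -0.66 and -0.48 with adjusted p from 9.3e-08 to 0.074 (limma), and was lost only without control line 2. Several alternatives cannot move this difference, so that its direction was fixed in them. These are the filter on dim probe sets, the fit of only the groups compared, and the trend and robust options. The line-number block, averaging a gene's probe sets, the threshold of 0.01 and leaving out a Sar1B line are the others. Of 633 values of the 7 genes under the alternatives, 584 kept their direction and side of the threshold or changed sign while not called (20), 48 passed newly, 1 was lost and 0 reversed. The 633 values include settings of this kind for each gene. With each array as a replicate the members called rose to 6, 5, 3, 3, 3 and 2 in the 6 comparisons (in the order Sar1B:H79G, Sar1B and Sar1A against control, Sar1B:H79G against Sar1B and Sar1A, and Sar1A against Sar1B), since arrays of a clone then count as samples. With the line as a random block they were 5, 3, 2, 2 and 2 in the first 5. With trend and robust options they were 2, 2 and 1 in the comparisons with control. In Sar1A against control, 1 was called after quantile normalization and 2 in a fit of only the groups compared, and in Sar1B:H79G against Sar1B the filter on dim probe sets gave 1, Abcb4. Leaving out a line gave 0 to 2 in Sar1B:H79G against control (0 if control line 2 was dropped, 2, Nr1h4 and Abcc3, if Sar1B:H79G line 1 was) and 0 to 2 against Sar1B (2, Abcb4 and Abcc3, if Sar1B:H79G line 1 was dropped), a lone line being assumed to vary like the others. Except where shown by the construction of the alternative, the cause was not tested. The line number as a replicate block, fitted without the Sar1A line, gave 3 in Sar1B:H79G and 1 in Sar1B against control. The numbers only name lines, whose deviations correlated at 0.0071, 0.192 and 0.0752 between groups. Slc10a1 and Abcb11 lie too near the dimmest signals for their differences to be read as changes of transcript.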
